A study of Rattus norvegicus with 30 samples.

Results

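The mRNAs of mitochondrial ribosomal proteins were followed in cultured rat hepatocytes treated with dioctyl phthalate, a phthalate ester used as a plasticiser. The genes were taken by name, as those whose rat symbol on the array was Mrpl or Mrps followed by a number. They numbered 73 (46 Mrpl and 27 Mrps) of 14217 genes with a probe set of their own. All 73 lay above the low-signal limit, a mean log2 signal of 7.88, and so were among the 10528 genes tested. Where a gene had several probe sets, the one of highest mean signal stood for it.

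The mitochondrial ribosome translates the few mRNAs of the mitochondrial genome, all of which encode subunits of the oxidative phosphorylation complexes. Its ribosomal RNAs come from the mitochondrial genome, whereas every one of its proteins is encoded in the nucleus, made in the cytosol and imported. Many of these proteins descend from bacterial ribosomal proteins, and others occur in the mitochondrial ribosome alone. The names Mrpl and Mrps refer to the large and the small subunit, but Mrps18a and Mrps30 encode proteins that sit in the large subunit, and the counts by subunit follow the structure. In liver, phthalate esters and their monoesters are known as activators of PPARα, a nuclear receptor that drives fatty acid oxidation in peroxisomes and mitochondria.

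The cells were frozen hepatocytes of male Sprague Dawley rats, bought, thawed, plated on collagen under a Matrigel overlay and dosed on day 3 of culture. They received vehicle (1% DMSO) or dioctyl phthalate at 250 µM or 1000 µM in the same vehicle, and RNA was taken 24 h or 48 h later. Each of the 6 groups held 5 wells, each on an array of its own, so there were 30 arrays. The wells were of bought cells and the sources used here do not say how many animals they came from, so errors and p-values describe the spread between wells.

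Array medians ran from 8.45 to 8.79 on the log2 scale. All 11 hepatocyte markers on the array were above the low-signal limit, and all 5 PPARα reference genes measured, among them Ehhadh of peroxisomal β-oxidation, rose at both doses and times. The 3′ over 5′ signal ratio of beta-actin, in log2, is a control that is higher for degraded or short-copied RNA, and it averaged between 1.14 and 1.30 in 5 groups and 1.72 ± 0.494 (SD, n = 5) in vehicle at 48 h. Within that group replicates 1, 2, 3 and 5 read 2.44, 1.74, 1.70 and 1.66, above every array of the other groups, and replicate 4 read 1.04. The exact two-sided permutation p of vehicle at 48 h against vehicle at 24 h was 0.0397, and 0.0794 after adjustment over 10 such tests. The same ratio of Gapdh averaged 0.219 in vehicle at 48 h and 0.147 at 24 h, with the same p-values. The 4 arrays of raised ratio are among the controls of every comparison with vehicle at 48 h. The counts of called members at 48 h are given below with and without them. Of the members described singly there, only some are given both ways, and Mrps7 and Mrps28 are not.

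Against vehicle, more members were called higher than lower in each comparison, though only 5 against 3 at 250 µM and 24 h. The changes were small. With all arrays more of them were called higher at 48 h than at 24 h. Without the 4 vehicle arrays of raised beta-actin ratio 1 vehicle array remained at 48 h. A call is then harder to reach, so counts of that fit cannot be set against those at 24 h. A gene is called changed where limma's adjusted p (Benjamini-Hochberg over all 10528 genes) was under 0.05. At 24 h, 250 µM raised 5 members and lowered 3, where 8.31% of all tested genes were called higher and 11% lower. At the same time 1000 µM raised 9 members and lowered 1, against 8.28% of all genes higher and 11.2% lower. At 48 h, 250 µM raised 36 members and lowered 1, against 15.2% and 26% of all genes. At 48 h 1000 µM raised 22 and lowered 1, against 11.5% and 18.3%. With the beta-actin ratio as a covariate the risers at 48 h were 22 and 13, and without the 4 vehicle arrays 2 at each dose, where calls over all genes were 688 higher and 692 lower at 250 µM and 617 and 560 at 1000 µM. With all arrays neither dose changed any member by 2-fold or more at either time. The median member change was 0.04 and 0.05 on the log2 scale for 250 and 1000 µM at 24 h and 0.16 and 0.09 at 48 h (0.10 and 0.01 without the 4 vehicle arrays), beside medians over all genes of -0.027, -0.035, -0.07 and -0.04. Both doses were read against the same vehicle arrays at each time. With array medians centred, 52 members rose and 1 fell at 250 µM and 48 h, while over all genes the calls moved from 1604 higher and 2738 lower to 2243 and 1839.

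**Figure D1:**
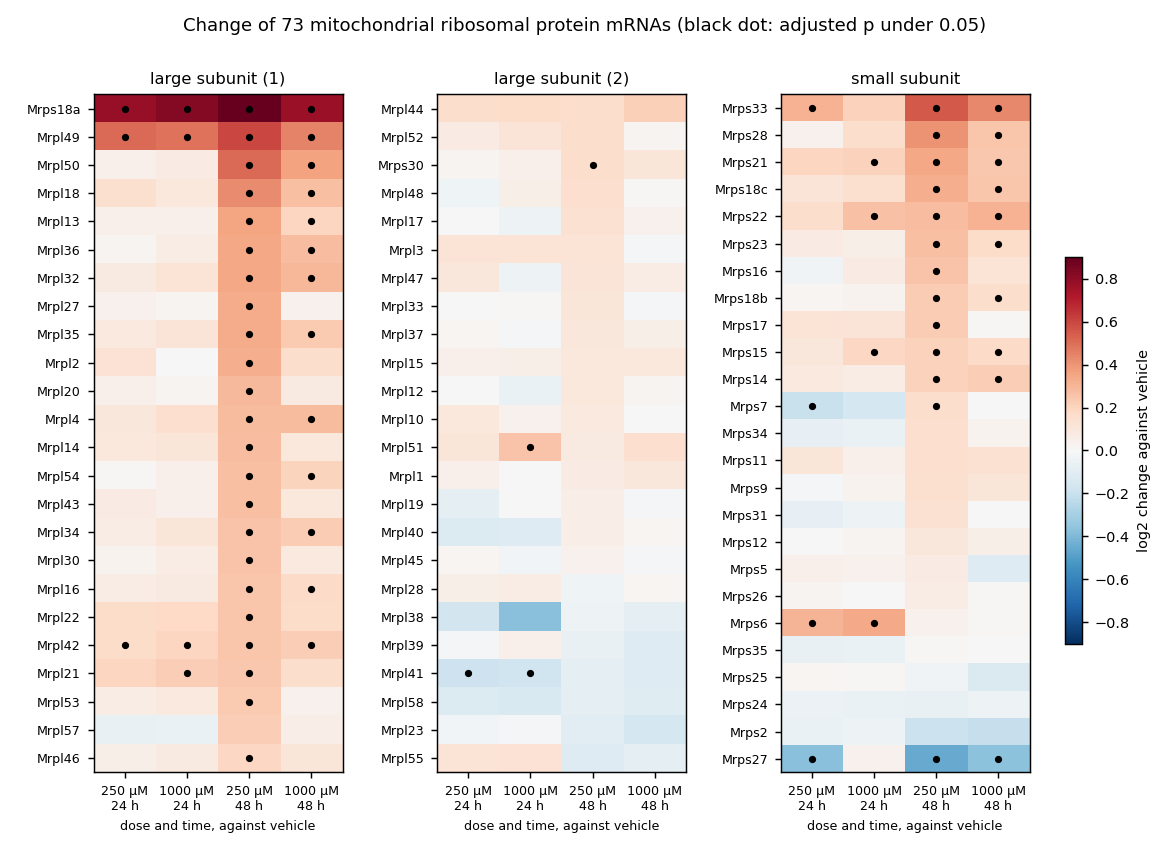
Log2 change against vehicle of the 73 mitochondrial ribosomal protein mRNAs (rows) at 250 and 1000 µM and at 24 and 48 h (columns), grouped by ribosomal subunit and ordered by the change at 250 µM and 48 h; black dots mark adjusted p under 0.05. Most dots lie in the third column, where 36 members were higher and 1 lower, and only Mrps18a, Mrpl49 and Mrpl42 carry a dot in all 4 columns.

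Of the 73 members, 40 were called in at least 1 of these 4 comparisons and 33 in none. At 250 µM and 48 h alone 15.2% of all tested genes were called higher and 26% lower. The share of all genes called in at least 1 of the 4 was not counted, nor were signs over all 4. The counts of this paragraph therefore cannot be read as particular to the members. Mrps18a, Mrpl49 and Mrpl42 were called higher in all 4, and Mrps15, Mrps21, Mrps22 and Mrps33 were higher in 3. Mrps27 was called lower in 3. The estimated change was above 0 in all 4 comparisons for 39 members and below 0 in all 4 for 6 (Mrpl23, Mrpl38, Mrpl41, Mrpl58, Mrps2 and Mrps24), of which Mrpl41 alone passed the test anywhere. The within-group standard deviation had a median of 0.107 over the 73, beside 0.18 over all tested genes. The members lay at least 1.85 above the low-signal limit in mean log2 signal. Genes of like signal were not compared, so the lower spread cannot be read as particular to the members.

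Mrps18a, a protein of the large subunit despite its name, rose most. Its log2 signals at 24 h were 12.996, 12.90, 13.04, 12.93 and 13.07 in vehicle, 13.75, 13.73, 13.94, 13.79 and 13.64 at 250 µM, and 13.96, 13.81, 13.89, 13.69 and 13.72 at 1000 µM. At 48 h they were 13.26, 12.95, 13.05, 12.94 and 13.15 in vehicle, 13.93, 13.96, 14.01, 13.99 and 13.94 at 250 µM, and 13.81, 13.99, 13.83, 13.80 and 13.80 at 1000 µM. Every treated array lay above every vehicle array of its time, and the vehicle arrays of both times covered much the same range. The log2 changes (± SE) were 0.78 ± 0.061 and 0.82 ± 0.061 at 24 h and 0.90 ± 0.061 and 0.78 ± 0.061 at 48 h, for 250 and 1000 µM in turn. In folds these were 1.72, 1.77, 1.86 and 1.71, with limma adjusted p-values of 5.82e-12, 1.59e-12, 9.95e-14 and 5.04e-12.

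Mrpl49, a large subunit protein found in the mitochondrial ribosome alone, followed. Its log2 signals at 24 h were 12.47, 12.37, 12.31, 12.21 and 12.19 in vehicle, 12.91, 12.90, 12.88, 12.76 and 12.67 at 250 µM, and 12.82, 12.82, 12.88, 12.82 and 12.67 at 1000 µM. At 48 h they were 12.22, 12.19, 12.10, 12.16 and 12.15 in vehicle, 12.63, 12.90, 12.76, 12.75 and 12.78 at 250 µM, and 12.72, 12.55, 12.63, 12.50 and 12.65 at 1000 µM. No treated array overlapped the vehicle arrays of its time. The changes were 0.51 ± 0.061, 0.49 ± 0.061, 0.60 ± 0.061 and 0.45 ± 0.061, in the order used above, or 1.36- to 1.52-fold, and the largest limma adjusted p of the 4 was 5.46e-07. A second Mrpl49 probe set gave 0.45 ± 0.080, 0.40 ± 0.080, 0.68 ± 0.080 and 0.58 ± 0.080.

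These 2 members were the only ones called against vehicle at 48 h without the 4 arrays of raised beta-actin ratio. In that fit 1 vehicle array remained at 48 h and was taken to vary like the other groups. Mrps18a then changed by 1.02 ± 0.097 at 250 µM, past 2-fold, and 0.90 ± 0.097 at 1000 µM, and Mrpl49 by 0.60 ± 0.108 and 0.45 ± 0.108, with limma adjusted p-values of 3.79e-09, 5.76e-08, 0.000186 and 0.0049.

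The promoters of both are shown because these members moved most, with Mrpl50, a riser at 48 h, and Mrps27, which fell. The sequences are RefSeq's on GRCr8, from 250 bases before to 50 after the gene start, read 5′ to 3′ on the gene's strand. Capitals mark matches on either strand to 3 motifs of factors known to act on nuclear genes for mitochondrial proteins: the ETS or GABP core CCGGAAG, the YY1 motif AAGATGGCG and the NRF1 core GCATGCGC. The windows are chr9:22367331-22367630 (minus strand) for Mrps18a, chr1:212779278-212779577 (minus) for Mrpl49, chr5:68668038-68668337 (minus) for Mrpl50 and chr2:32473954-32474253 (plus) for Mrps27.
Mrps18a: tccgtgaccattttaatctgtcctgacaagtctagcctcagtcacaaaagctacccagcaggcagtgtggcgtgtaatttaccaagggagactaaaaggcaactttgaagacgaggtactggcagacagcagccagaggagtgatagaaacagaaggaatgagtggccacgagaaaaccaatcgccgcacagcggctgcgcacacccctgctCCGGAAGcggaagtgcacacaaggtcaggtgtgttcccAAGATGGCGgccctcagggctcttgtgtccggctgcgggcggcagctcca
Mrpl49: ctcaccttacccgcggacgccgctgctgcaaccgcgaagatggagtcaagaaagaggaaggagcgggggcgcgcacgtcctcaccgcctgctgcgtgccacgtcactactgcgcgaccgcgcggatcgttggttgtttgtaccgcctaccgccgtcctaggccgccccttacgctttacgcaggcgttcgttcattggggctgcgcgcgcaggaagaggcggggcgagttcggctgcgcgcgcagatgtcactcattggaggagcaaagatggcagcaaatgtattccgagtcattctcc
Mrpl50: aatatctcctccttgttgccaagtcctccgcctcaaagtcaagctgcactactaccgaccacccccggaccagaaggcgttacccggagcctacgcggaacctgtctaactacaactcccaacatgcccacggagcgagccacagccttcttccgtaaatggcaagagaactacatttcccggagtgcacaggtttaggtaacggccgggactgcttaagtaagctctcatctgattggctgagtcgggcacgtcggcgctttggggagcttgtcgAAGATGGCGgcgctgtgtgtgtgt
Mrps27: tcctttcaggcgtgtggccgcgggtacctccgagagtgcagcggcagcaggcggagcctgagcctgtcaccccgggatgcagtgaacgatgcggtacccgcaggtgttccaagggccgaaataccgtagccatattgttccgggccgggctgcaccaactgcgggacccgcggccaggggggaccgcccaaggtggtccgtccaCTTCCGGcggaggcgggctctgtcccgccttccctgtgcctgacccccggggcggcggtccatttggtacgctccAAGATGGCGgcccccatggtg
The Mrps18a window held an ETS match that began 38 bases before the gene start and a YY1 match that began at the first base of the gene. The Mrps27 window held both as well, the ETS match on the opposite strand, and the Mrpl50 window held a YY1 match. None of the 3 motifs was found in the Mrpl49 window, which says only that these letters are not in it.

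Among the 59 members with an entry in the promoter table, 20 (33.9%) held the ETS core, 8 (13.6%) the YY1 motif and 5 (8.47%) the NRF1 core. Over all 33469 promoters of the table the shares were 8.75%, 1.73% and 2.47%, and over the 8840 tested genes with an entry they were 18.6%, 3.98% and 5.09%. The NRF1 core was found in Mrpl17, Mrpl22, Mrpl32, Mrpl44 and Mrps18b, and the YY1 motif in Mrpl36, Mrpl37, Mrpl42, Mrpl46, Mrpl50, Mrps18a, Mrps27 and Mrps30. Of the 29 promoters of members called higher at 250 µM and 48 h, 10 held the ETS core, 6 the YY1 motif and 3 the NRF1 core. Of the 30 promoters of the other members, the counts were 10, 2 and 2. A match is a description of the sequence and not evidence of a bound factor. At 250 µM and 48 h the mRNA of Yy1 itself changed by -0.18 ± 0.047 and that of Nrf1 by -0.98 ± 0.279, both called lower. Without the 4 vehicle arrays of raised beta-actin ratio they changed by -0.07 ± 0.077 and -0.90 ± 0.51, and neither was called.

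At 24 h few members moved. Mrpl42, a large subunit protein, read 13.12, 13.15, 13.15, 13.11 and 13.08 in vehicle, 13.31, 13.30, 13.33, 13.26 and 13.24 at 250 µM, and 13.42, 13.36, 13.34, 13.28 and 13.16 at 1000 µM. Both treated groups lay above all vehicle arrays and overlapped each other, and the changes were 0.17 ± 0.047 and 0.19 ± 0.047 (limma adjusted p 0.00852 and 0.0026). At 48 h Mrpl42 changed by 0.25 ± 0.047 and 0.22 ± 0.047, and by 0.17 ± 0.081 and 0.15 ± 0.081 without the 4 vehicle arrays, which no longer passed the test (adjusted p 0.177 and 0.3).

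Mrps6, the small subunit homologue of bacterial S6, rose at 24 h and not at 48 h. It read 12.43, 12.24, 12.20, 12.03 and 12.19 in vehicle, 12.57, 12.53, 12.79, 12.31 and 12.43 at 250 µM, and 12.76, 12.62, 12.51, 12.54 and 12.38 at 1000 µM, where the lowest treated arrays overlapped the highest vehicle array. At 48 h it read 12.75, 12.67, 12.50, 12.76 and 12.79 in vehicle, 12.79, 12.83, 12.61, 12.56 and 12.88 at 250 µM, and 12.83, 12.66, 12.67, 12.65 and 12.73 at 1000 µM. The vehicle arrays of 48 h were thus all above those of 24 h, and the 3 groups of 48 h overlapped. The changes were 0.31 ± 0.082 and 0.34 ± 0.082 at 24 h (limma adjusted p 0.00555 and 0.00223) and 0.04 ± 0.082 and 0.01 ± 0.082 at 48 h. The difference between the times did not pass the test at 250 µM (-0.27 ± 0.116, adjusted p 0.149) or at 1000 µM (-0.33 ± 0.116, adjusted p 0.213).

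Mrpl41 and Mrps7 fell at 24 h. Mrpl41, a large subunit protein without a bacterial counterpart, read 14.12, 14.18, 14.11, 13.97 and 14.08 in vehicle, 13.97, 13.95, 13.98, 13.84 and 13.80 at 250 µM, and 13.94, 13.91, 13.93, 13.95 and 13.84 at 1000 µM. All arrays at 1000 µM lay below all vehicle arrays, and the changes were -0.19 ± 0.051 and -0.18 ± 0.051 (limma adjusted p 0.00778 and 0.01). With array medians centred they were -0.15 and -0.14 and no longer passed the test. Mrps7, which in bacteria helps to assemble the head of the small subunit, read 12.88, 12.72, 12.61, 12.59 and 12.63 in vehicle and 12.56, 12.49, 12.54, 12.38 and 12.45 at 250 µM, all lower. Its change of -0.20 ± 0.061 at 250 µM (adjusted p 0.0159) lost its call without vehicle replicate 1 (-0.15), without 250 µM replicate 4 (-0.18) and with array medians centred (-0.17). At 1000 µM it was -0.16 ± 0.061 (adjusted p 0.0702).

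At 1000 µM and 24 h, Mrps22, a small subunit protein without a bacterial counterpart, was among the members called higher, by 0.26 ± 0.087 (limma adjusted p 0.031). That call was lost without any 1 of vehicle replicates 1, 2 and 3 or 1000 µM replicates 1, 3 and 4, with values from 0.23 to 0.26. The other members raised at that dose and time were Mrpl21, Mrpl51, Mrps15 and Mrps21, by 0.19 to 0.26. Calls at the 2 times use different arrays. At 250 µM, 4 of the 5 members raised at 24 h were among the 36 raised at 48 h (Mrpl42, Mrpl49, Mrps18a and Mrps33), and at 1000 µM 6 of 9 were among the 22.

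At 48 h the rise at 250 µM took in 24 of the 48 large subunit proteins and 12 of the 25 small subunit proteins, with median changes of 0.17 and 0.15. It took in 23 of the 41 members sorted as bacterial homologues (median 0.21) and 12 of the 30 sorted as occurring in mitochondria alone (median 0.16). The 2 others were sorted to neither. The Mrps18 genes were sorted apart, with Mrps18b among the 30, Mrps18c among the 41 and Mrps18a in neither. The counts by origin depend on that sorting. For 25 of the 36, every treated array lay above every vehicle array, those of raised beta-actin ratio included. The share of all tested genes with such a gap was not counted, so the 25 cannot be read as particular to the members. At 1000 µM the corresponding counts were 13 of 48 and 9 of 25 by subunit, with medians of 0.09 and 0.05. With the beta-actin ratio as a covariate the risers at 250 µM were 18 of 48 and 4 of 25 by subunit and 11 of 41 and 10 of 30 by origin. Leaving out the 4 vehicle arrays gave 2 and 0, then 0 and 1, since Mrps18a was sorted to neither origin. The difference between subunits or origins was not tested.

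Mrps33, a small subunit protein found in the mitochondrial ribosome alone, rose by 0.55 ± 0.090 at 250 µM and 0.43 ± 0.090 at 1000 µM (limma adjusted p 7.2e-06 and 0.000349). Its signals at 48 h were 12.88, 13.14, 13.21, 13.55 and 12.96 in vehicle, 13.66, 13.62, 13.74, 13.73 and 13.77 at 250 µM, and 13.66, 13.43, 13.72, 13.53 and 13.56 at 1000 µM. Vehicle replicate 4, the array with an unraised beta-actin ratio, was the highest of its group and lay within the range at 1000 µM. Without the 4 arrays of raised ratio the changes were 0.15 ± 0.124 and 0.03 ± 0.124. At 24 h, where the ratio did not differ, Mrps33 read 13.59, 13.46, 13.20, 13.55 and 13.41 in vehicle and 13.88, 13.74, 13.84, 13.72 and 13.61 at 250 µM. That change of 0.31 ± 0.090 (adjusted p 0.0108) fell to 0.25 and lost its call without vehicle replicate 3, and at 1000 µM the change was 0.21 ± 0.090 (adjusted p 0.103).

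Mrpl50, a large subunit protein found in the mitochondrial ribosome alone, showed the same split more sharply. It read 12.93, 13.11, 13.20, 13.63 and 13.07 in vehicle at 48 h, 13.60, 13.68, 13.74, 13.73 and 13.73 at 250 µM, and 13.51, 13.50, 13.68, 13.53 and 13.51 at 1000 µM. Replicate 4 of the vehicle lay among the treated arrays and the other 4 vehicle arrays lay below all of them. The changes were 0.51 ± 0.075 and 0.36 ± 0.075 (limma adjusted p 1.75e-06 and 0.000358) with all arrays. They were 0.07 ± 0.082 and -0.08 ± 0.082 without the 4 arrays of raised ratio, so the sign at 1000 µM turned.

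The same comparison over all members is as follows. The median log2 difference of the 73 members from their vehicle 24 h mean was -0.12, -0.18, -0.15, -0.06 and -0.16 on vehicle replicates 1 to 5 at 48 h. It ran from 0.03 to 0.06 at 250 µM and from -0.10 to 0.06 at 1000 µM at 48 h. At 24 h it ran from -0.03 to 0.07 in vehicle, from -0.04 to 0.13 at 250 µM and from -0.04 to 0.13 at 1000 µM. The vehicle arrays of 48 h were thus the lowest 4 and replicate 4 stood within the range at 1000 µM. Replicate 4 was the highest of the 5 vehicle arrays of 48 h for 41 members and the lowest for 10. It lay below every 250 µM array for 34 members, and the mean of the other 4 did so for 49. A mean of 4 arrays varies less than a single array. The counts of 34 and 49 therefore cannot show how far replicate 4 differed from the others. The share of all tested genes with such positions was not counted, so these counts cannot be read as particular to the members.

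**Figure D2:**
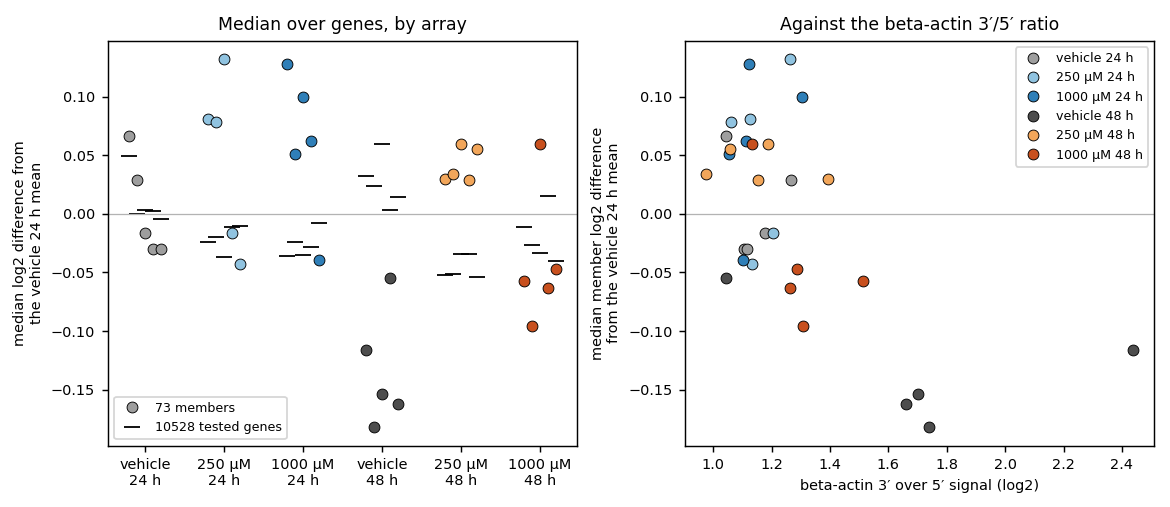
Left, median log2 difference from the vehicle 24 h mean on each array, by group, for the 73 members (circles) and for all 10528 tested genes (bars). Right, the member median against the log2 ratio of beta-actin 3′ to 5′ signal, 1 point per array; the 4 vehicle 48 h arrays at 1.66 to 2.44 have the 4 lowest member medians, and the vehicle 48 h array at 1.04 lies among arrays of other groups.

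With the beta-actin ratio as a covariate, limma called 22 members higher and 0 lower at 250 µM and 48 h, and 13 and 0 at 1000 µM. Of the 22, 20 were among the 37 called without the covariate. Calls over all genes with the covariate are not given here. Counts of that fit, here and elsewhere, therefore cannot be read as particular to the members. Mrps33, Mrpl50 and Mrpl27, the homologue of the bacterial protein near the peptidyl transferase centre, stayed higher at 250 µM (0.34 ± 0.098, 0.28 ± 0.071 and 0.34 ± 0.067). With the 4 vehicle arrays left out, 2 members were called higher at each dose, 15 passed an unadjusted p of 0.05 at 250 µM and 7 at 1000 µM. The median change was then 0.10 at 250 µM and 0.01 at 1000 µM, and 54 and 37 members had a change above 0. That fit has 1 vehicle array at 48 h and so less power. The part of the ratio in the rise at 48 h cannot be told apart from the wells that carried it.

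**Figure D3:**
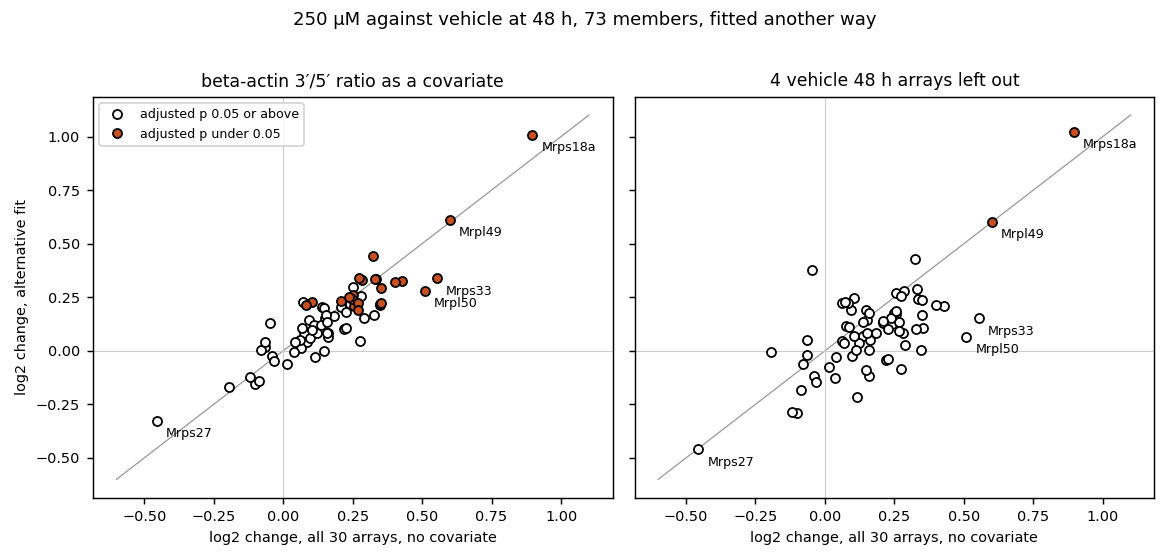
Log2 change of the 73 members at 250 µM against vehicle at 48 h with all arrays and no covariate (horizontal) and refitted (vertical) with the beta-actin ratio as a covariate (left) or without the 4 vehicle arrays of raised ratio (right); filled points have adjusted p under 0.05 in the refit and the line marks equal values. Mrps18a and Mrpl49 stay on or above the line in both panels, and Mrpl50 and Mrps33 drop to 0.07 and 0.15 on the right.

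Mrps27, an RNA-binding small subunit protein, was the one member that fell at 48 h. It read 10.64, 10.52, 10.45, 10.50 and 10.34 in vehicle, 10.18, 9.79, 10.10, 10.07 and 10.03 at 250 µM, and 10.22, 10.11, 9.95, 10.16 and 10.18 at 1000 µM. All treated arrays lay below all vehicle arrays, and the changes were -0.46 ± 0.102 and -0.37 ± 0.102 (limma adjusted p 0.000513 and 0.00604). At 24 h it read 10.18, 10.12, 9.66, 9.97 and 10.02 in vehicle, 9.83, 9.38, 9.71, 9.52 and 9.62 at 250 µM, and 9.89, 10.001, 10.22, 10.07 and 9.95 at 1000 µM. It was lower at 250 µM (-0.38 ± 0.102, adjusted p 0.00641) and not at 1000 µM (0.04 ± 0.102). Its 2 dimmer probe sets gave 0.04 ± 0.235 and -0.17 ± 0.368 at 250 µM and 48 h. The mean over the 3 probe sets changed by -0.20 at 250 µM and -0.14 at 1000 µM at 48 h, and by -0.17 at 250 µM and 24 h, and none of these passed the test. With the beta-actin ratio as a covariate the changes at 48 h were -0.33 and -0.27, and without the 4 vehicle arrays -0.46 and -0.37, and none of these passed the test.

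**Figure D4:**
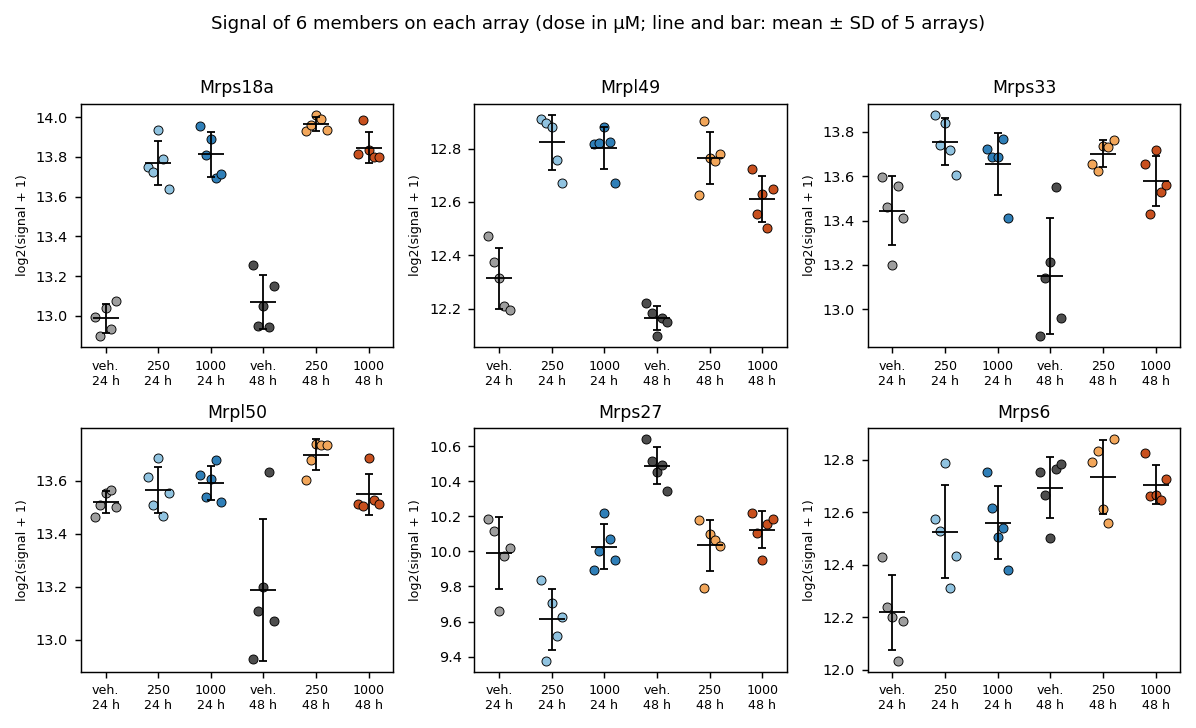
Log2(signal + 1) of 6 members on each of the 30 arrays, by group; points are arrays (wells), and the line and bar give the mean and SD of 5. Treated arrays of Mrps18a and Mrpl49 lie above the vehicle arrays at both times, and for Mrps33 and Mrpl50 at 48 h 1 vehicle array, at 13.55 and 13.63, lies near the treated arrays.

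Several members with known extra roles did not pass the test against vehicle at either dose or time. Mrpl12, the stalk protein that also binds the mitochondrial RNA polymerase, changed by 0.00, -0.06, 0.09 and 0.03, in the order 250 and 1000 µM at 24 h, then at 48 h. Mrpl10, to which the stalk is anchored, changed by 0.10, 0.04, 0.09 and -0.01. Mrpl58, a peptidyl-tRNA hydrolase that rescues stalled ribosomes, changed by -0.13, -0.13, -0.09 and -0.11. Mrpl44, which has a fold like that of RNase III, changed by 0.15, 0.17, 0.16 and 0.21, and Mrps12, of the decoding site, by 0.00, 0.03, 0.10 and 0.05. Mrps2 changed by -0.06, -0.04, -0.20 and -0.21. Mrps30 rose at 250 µM and 48 h alone (0.16). The 3 Mrps18 genes differed in size: Mrps18b rose by 0.23 and 0.16 at 48 h, Mrps18c by 0.33 and 0.25, and Mrps18a by the values above. Without the 4 vehicle arrays Mrps18b changed by 0.10 and 0.03, Mrps18c by 0.10 and 0.02 and Mrps30 by 0.01 at 250 µM, and none was called.

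No member but 1 was called between the doses. At 24 h limma called 0 members higher and 0 lower at 1000 than at 250 µM, with 2 at an unadjusted p under 0.05, and 0% and 0.019% of all genes were called higher and lower. At 48 h 0 were higher and 1 lower, where 0.038% and 0.0285% of all genes were called. The exception was Mrpl27, which at 48 h read 13.76, 13.60, 13.67, 13.79 and 13.71 in vehicle, 14.02, 14.002, 14.11, 14.05 and 14.01 at 250 µM, and 13.82, 13.54, 13.82, 13.81 and 13.72 at 1000 µM. The 250 µM arrays lay above all others and the other groups overlapped. The difference was -0.30 ± 0.053 (adjusted p 0.0116), and the call was lost without 250 µM replicate 3 (-0.28) or 1000 µM replicate 2 (-0.25). For Mrps18a the 95% interval of the difference between doses was -0.08 to 0.17 at 24 h and -0.25 to 0.01 at 48 h. For Mrpl49 it was -0.14 to 0.10 at 24 h and -0.28 to -0.03 at 48 h, where the adjusted p was 0.309. Over the 73 members the median difference at 48 h was -0.08, and 15 members had an unadjusted p under 0.05, all of them lower at 1000 µM. Shares of all tested genes at that unadjusted p are not given here. Such counts, here and elsewhere, therefore cannot be read as particular to the members.

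With time in culture members fell in vehicle and at 1000 µM and not at 250 µM. From 24 to 48 h in vehicle 3 rose and 23 fell, beside 16.4% and 11.7% of all genes, with a member median of -0.14. The risers were Mrps27 (0.50 ± 0.102), Mrps6 (0.48 ± 0.082) and Mrpl37 (0.27 ± 0.065), and with the mean of all probe sets 1 member rose. Mrpl37 then changed by -0.095, its sign turned, and Mrps27 by 0.24, which was not called. The largest falls were those of Mrpl57 (-0.39), Mrpl20 (-0.36), Mrpl18 and Mrps18c (both -0.35). This comparison uses the same vehicle arrays as the dose comparisons at 48 h, with their raised beta-actin ratio: with the ratio as a covariate 1 rose and 6 fell, and without the 4 arrays 1 rose (Mrps6) and 0 fell, with 6 at an unadjusted p under 0.05. At 250 µM 5 members rose and 0 fell (6.86% and 6.52% of all genes, median -0.01): Mrps27 (0.42), Mrpl37 (0.36), Mrps28 (0.25), Mrps18a (0.20) and Mrps7 (0.18). With the mean of all probe sets Mrps27 changed by 0.21 and Mrpl37 by 0.27, and neither was called. The rise of Mrps18a lost its call without any 1 of replicates 1, 2 and 5 of 24 h or 3 and 4 of 48 h. Leaving out replicate 2 or 5 of 250 µM at 24 h left 3 called members. At 1000 µM 1 member rose (Mrpl37, 0.34, or 0.22 and not called with the mean of all probe sets) and 15 fell (9.91% and 8.11% of all genes, median -0.09). The largest falls were Mrpl20 (-0.31), Mrpl30 and Mrpl53 (both -0.27) and Mrpl52 (-0.25). That count was 8 to 10 without replicate 2, 4 or 5 of 48 h or replicate 1 or 3 of 24 h.

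The effect of 250 µM was larger at 48 than at 24 h for 8 members and smaller for 0, beside 3.84% and 4.52% of all genes, with a median difference of 0.12. Mrpl50 had the largest difference (0.46 ± 0.107, limma adjusted p 0.00662), then Mrps7 (0.36 ± 0.086) and Mrps28 (0.36 ± 0.095), and the others were Mrpl36, Mrpl13, Mrpl27, Mrpl18 and Mrpl30. Mrps28, a small subunit protein, read 11.39, 11.45, 11.48, 11.65 and 11.36 in vehicle at 48 h and 11.79, 11.77, 12.02, 11.76 and 11.996 at 250 µM, without overlap. Mrps7 read 12.47, 12.55, 12.49, 12.49 and 12.53 in vehicle at 48 h and 12.70, 12.56, 12.63, 12.64 and 12.81 at 250 µM, so that its fall at 24 h had become a rise (0.16 ± 0.061, adjusted p 0.0358). No difference was called with the beta-actin ratio as a covariate (15 of 73 at an unadjusted p under 0.05) or without the 4 vehicle arrays (7 of 73). The count was 5 when vehicle replicate 2 of 24 h, vehicle replicate 2 or 3 of 48 h, 250 µM replicate 4 or 5 of 24 h or 250 µM replicate 3 of 48 h was left out, and 15 without vehicle replicate 4 of 48 h. For 1000 µM limma called 0 members in either direction (4 at an unadjusted p under 0.05), beside 0.522% and 0.446% of all genes.

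In 15 of the genes more than 1 probe set lay above the limit, and not all of them moved alike. Mrpl37 rose with time in vehicle by 0.27 ± 0.066 on the probe set used and changed by -0.46 ± 0.170 on the other. Of the 4 Mrpl51 probe sets, the one used changed by 0.08 ± 0.068 at 250 µM and 48 h, and the others by 0.04 ± 0.066, 0.44 ± 0.082 and 0.65 ± 0.107. Opposite signs past the standard error against vehicle occurred for Mrpl10 at 250 µM and 24 h (0.10 ± 0.066 and -0.13 ± 0.089) and for Mrps2 at 48 h at both doses (at 250 µM -0.20 ± 0.101 and 0.51 ± 0.297). Signals of the 73 probe sets averaged from 9.73 (Mrpl38, with Mrps27, Mrps31 and Mrps9 next) to 14.71 (Mrpl17, with Mrpl41, Mrpl55 and Mrpl27 next), between 1.85 and 6.83 above the low-signal limit. These are not an order of transcript abundance, since brightness differs between probes.

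Related gene lists are given as counts, to be read against the shares over all genes above (at 250 µM 8.31% higher and 11% lower at 24 h and 15.2% and 26% at 48 h). Subunits of oxidative phosphorylation, the complexes to which its products belong, were called higher in 6 of 74 cases and lower in 1 at 250 µM and 24 h, and in 50 and 2 at 48 h (median 0.21). At 1000 µM the counts were 7 and 1, then 25 and 3. Without the 4 vehicle arrays of raised beta-actin ratio the counts at 48 h were 10 and 1 at 250 µM and 0 and 1 at 1000 µM (medians 0.12 and 0.03), and with the ratio as a covariate 47 and 2, and 20 and 3. Cytosolic ribosomal proteins (45) gave 0 calls at 24 h at either dose and 0 at 250 µM and 48 h, with 0, 1 and 1 at an unadjusted p under 0.05 in limma. At 1000 µM and 48 h 2 of them fell (Rpl23a -0.19, Rpl35 -0.17). Their medians were -0.04 and -0.06 at 24 h and 0.04 and -0.07 at 48 h. At 48 h 0 were called at either dose without the 4 vehicle arrays, and the medians were -0.04 and -0.155.

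Proteins of mitochondrial import and mitochondrial proteases (29) gave 5 risers at each dose at 24 h, 14 at 250 µM and 5 at 1000 µM at 48 h, and 0 fallers. At 48 h 3 and 2 rose without the 4 vehicle arrays, among them Clpx (1.03 ± 0.103 and 0.89 ± 0.103) and Grpel1 (0.50 ± 0.069 and 0.39 ± 0.069). Clpx, the unfoldase of the matrix protease, changed by 0.69 ± 0.06 and 0.66 ± 0.06 at 24 h and 1.01 ± 0.06 and 0.87 ± 0.06 at 48 h. Grpel1, the nucleotide exchange factor of the import motor, changed by 0.42, 0.42, 0.63 and 0.52, and Pmpcb, a subunit of the presequence protease, by 0.26, 0.31, 0.45 and 0.33. The proteins that copy and transcribe mitochondrial DNA (15) gave 2 risers and 1 faller at 24 h at each dose, then 6 and 3 at 250 µM and 4 and 1 at 1000 µM. The counts at 48 h without the 4 vehicle arrays were 2 and 0, then 3 and 1. Tfam, which packages mitochondrial DNA and starts its transcription, changed by 0.25, 0.20, 0.41 and 0.28, all called, and by 0.31 (called) and 0.18 (not called) at 48 h without those arrays. Tfb2m, the other initiation factor, changed by 0.32, 0.38, 0.56 and 0.45, and Polg2, the accessory subunit of the DNA polymerase, by -0.43, -0.48, -0.34 and -0.40.

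Factors that build the ribosome or process its RNA (26) gave 2 risers and 1 faller at each dose at 24 h, 5 and 6 at 250 µM and 4 and 2 at 1000 µM at 48 h. The counts at 250 µM and 48 h are near those the shares over all genes give. Leaving out the 4 vehicle arrays gave 1 and 2, then 0 and 1. Mterf4, which guides assembly of the large subunit, changed by 0.23, 0.20, 0.37 and 0.31, and Mtg1, a GTPase of the same step, by -0.34, -0.20, -0.18 and -0.27. The translation factors (13) gave 2 and 1 risers at 24 h and 3 and 1 at 48 h, and 0 fallers, and none was called at 48 h without the 4 vehicle arrays. Mtrfr, a release factor for stalled ribosomes, was higher in all 4 comparisons (0.64, 0.57, 0.69 and 0.66), and Mtrf1 was higher at 250 µM (1.24 ± 0.349 and 1.26 ± 0.349), where without those arrays it changed by -0.13 ± 0.511 at 48 h. Mitochondrial aminoacyl-tRNA synthetases (15) gave 0 called at 250 µM and 24 h and at most 2 calls in the others, with Hars2 lower in 3 comparisons (-0.24, -0.30 and -0.22), none of them called at 48 h without the 4 vehicle arrays (-0.30 and -0.21).

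A list of ribosomal and ribosome-bound proteins without an Mrp symbol (6) gave 1 riser in each comparison. This was Oxa1l, not a ribosomal protein but the inner membrane insertase to which the ribosome docks (0.19, 0.17, 0.31 and 0.17). Gadd45gip1 fell at 250 µM at both times (-0.17 and -0.14), and Dap3 and Ptcd3 at 250 µM and 48 h (-0.19 and -0.33). None of these 4 was called at 48 h without the 4 vehicle arrays, where Oxa1l changed by 0.135 and -0.01. Of 11 regulators of mitochondrial biogenesis, 6 fell and 0 rose at 250 µM and 48 h, among them Myc (-0.50), which was lower in all 4 comparisons, and Ppargc1a (-0.43), a coactivator of nuclear genes for mitochondria. Esrra rose at 250 µM and 24 h (0.53 ± 0.152). At 48 h 2 regulators fell at each dose without the 4 vehicle arrays, Myc (-0.65 and -0.60) and Ppargc1a (-0.89 and -0.765).

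**Figure D5:**
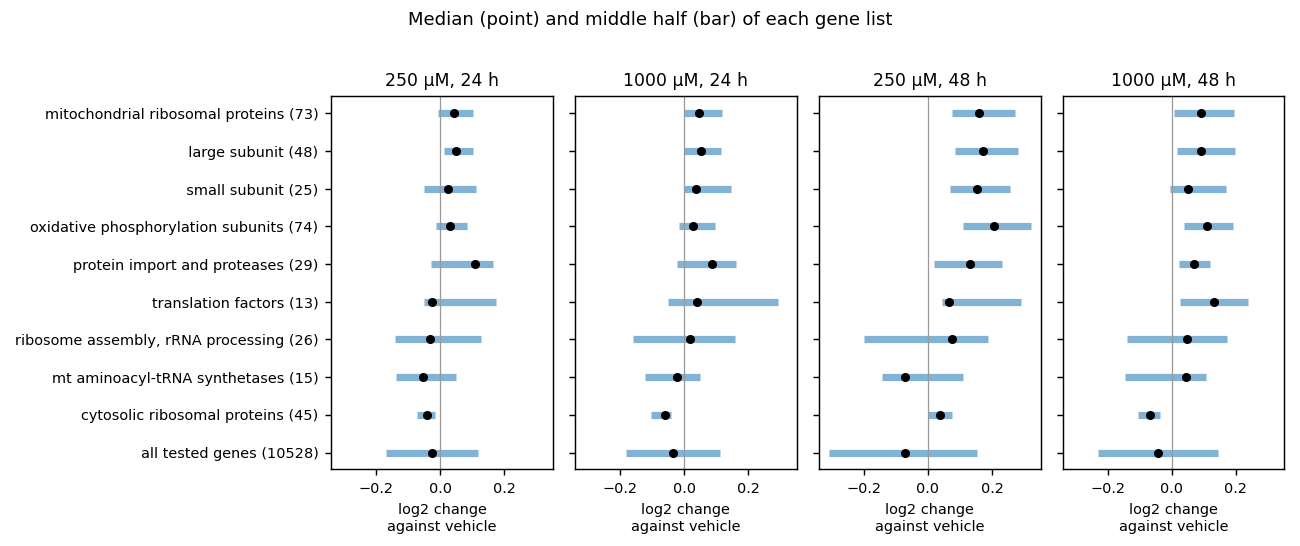
Median log2 change against vehicle (point) and interquartile range of the genes (bar) for the mitochondrial ribosomal proteins, their subunits, related gene lists and all tested genes, in the 4 comparisons; list sizes stand in brackets. At 250 µM and 48 h the ribosomal protein median is 0.16 and the oxidative phosphorylation median 0.21, while cytosolic ribosomal proteins stand at 0.04 and all genes at -0.07.

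The summed signal of the 11 hepatocyte markers at 24 h was 532100 to 754700 in vehicle, 498300 to 577600 at 250 µM and 422100 to 581200 at 1000 µM, and at 48 h 519000 to 601000, 456100 to 523300 and 425000 to 502800. All wells at 1000 µM and 48 h lay below all vehicle wells, and the other treated groups overlapped vehicle. Of these markers 4 were called lower at 24 h and 5 at 48 h at each dose, and 4 at 48 h without the 4 vehicle arrays. The summed signal of stellate cell markers was lower in all treated wells than in all vehicle wells, with overlap between the doses. With the beta-actin ratio as a covariate, 1 of the 6 tested was called lower at 250 µM and 48 h. At 1000 µM and 48 h 2 were, with 0 higher at either dose. Their median log2 changes were -0.16 and -0.165, so the sum does not show a fall of each marker. The summed signal of the stellate cell markers on the array (9, of which Col1a2, Pdgfrb and Lrat were not above the limit) was 10780 to 16020 in vehicle and 7493 to 8685 in the treated groups at 24 h, and 15920 to 16980 against 7205 to 9236 at 48 h. The Kupffer cell and leukocyte markers summed to 20890 to 27740 in vehicle and 22680 to 26920 in treated wells at 24 h, and to 19980 to 22010 and 20280 to 24300 at 48 h. Kupffer cell sums at 250 µM and 48 h (22660 to 24300) lay above all vehicle wells, and those of the other treated groups overlapped vehicle. Only 2 of 6 endothelial and 1 of 5 cholangiocyte markers were above the limit. Their part in the member changes was not tested, and in bulk RNA fewer cells of a type and less RNA per cell cannot be told apart.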

How the data were processed

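RNA of 30 wells was hybridised to 1-colour rat expression arrays as biotin-labelled cRNA, per the labels' protocols. The deposited values are linear intensity signals per probe set that the authors made with MAS5, per the submitters' processing notes, of a version not given in the sources used here. Each array had a trimmed mean of 1500, so the arrays had been scaled to one target, which leaves RNA content per well unmeasured. No renormalisation was made. Signals were taken as log2(signal + 1). The 40% of probe sets of lowest mean were left out (log2 limit 7.88), and each gene was represented by its single-symbol probe set of highest mean, with symbols from the platform annotation.

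The 6 groups of 5 arrays were fitted together in limma 3.58.1 (R 4.3.3, lmFit and eBayes), and 11 contrasts were taken with Benjamini-Hochberg adjustment over 10528 genes. Fold changes are on the log2(signal + 1) scale. The script was tested on simulated data. Replicates are numbered in accession order. The members and lists were chosen with earlier results of these data known. Members named are those of largest called rise and fall in each comparison, those of highest and lowest level, those whose probe sets disagreed in sign, and a fixed set; others are named as exceptions after their values were seen. Mrpl11 and Mrps36 of the fixed set were not among the 73. Alternatives changed the constant, the filter, the scaling, the probe set rule, covariates and the arrays used. Promoters came from RefSeq (GRCr8). The number of arrays limits the precision.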

Additional observations from a re-analysis of the deposited data

Results flagged for a closer look

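Among 132 groups of 5 arrays examined, 14 had 1 array far from the other 4, where chance flags about 1 in 20 groups. The groups were those of 19 members of largest called rise or fall, the member median and the control ratios. Other members, among them Mrpl42, were not examined. In vehicle at 24 h these were single arrays of Mrpl37 (12.019), Mrpl57 (12.151) and Mrps18c (12.598). In vehicle at 48 h it was replicate 4 of Mrpl20 (13.038), the array of unraised beta-actin ratio. At 1000 µM and 24 h they were Mrpl30 (13.216), Mrpl37 (11.945), Mrps33 (13.411) and the beta-actin log2 ratio itself (1.304). At 250 µM and 48 h they were Mrpl20 (12.95), Mrpl41 (13.779), Mrpl52 (12.174) and Mrpl57 (11.799), and at 1000 µM and 48 h Mrpl50 (13.685) and Mrps18a (13.987).

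The effect of 250 µM differed between 48 and 24 h, by limma's test of the difference itself, for Mrpl50 (0.461), Mrps7 (0.361), Mrps28 (0.358), Mrpl36 (0.325), Mrpl13 (0.309), Mrpl27 (0.296), Mrpl18 (0.282) and Mrpl30 (0.223), all larger at 48 h. None of these 8 was called with the beta-actin ratio as a covariate or without the 4 vehicle arrays of raised ratio.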

How the results depend on the processing

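Counts of called members kept within 1.5 times of the values reported when the constant was 16, with no low-signal filter or a stricter one, and with array medians centred or quantiles matched. With the beta-actin ratio as a covariate they were 22 at 250 µM and 13 at 1000 µM at 48 h, 7 with time in vehicle and 0 for the difference in the 250 µM effect. Without the 4 vehicle arrays of raised ratio they were 2, 2, 1 and 0. With time at 250 µM the count was 3 with the mean of all probe sets and 8 with the array number as a covariate. Signs turned for Mrpl50 at 1000 µM and 48 h (-0.084 without the 4 arrays) and Mrpl37 with time in vehicle (-0.095 with the mean of all probe sets, whose second probe set fell).

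Leaving out 1 array at a time gave 7 to 11 called members at 250 µM and 7 to 12 at 1000 µM at 24 h, then 34 to 42 and 17 to 28 at 48 h. Between doses it gave 0 at 24 h and 0 to 1 at 48 h. With time it gave 20 to 35 in vehicle, 3 to 7 at 250 µM and 8 to 17 at 1000 µM. For the differences in effect it gave 5 to 15 at 250 µM and 0 to 2 at 1000 µM, the 2 without vehicle replicate 4 of 48 h. Centring array medians moved the calls over all genes with time in vehicle from 1731 higher and 1232 lower to 1299 and 1554, and from 1043 and 854 to 704 and 1078 at 1000 µM. The array numbers in the titles run through the 6 groups in the same order 5 times. A fit with these sets of 6 as a replicate block, added after seeing the data, called 9 and 10 members at 24 h, 37 and 24 at 48 h (250 and 1000 µM), 27, 5 and 16 with time in vehicle, at 250 µM and at 1000 µM, and 7 for the difference in the 250 µM effect. The labels do not say that a set shares a batch, so the sets were not taken as pairs. Deviations from group means correlated over 0.1 in 19 of 75 pairs of arrays of one set (range -0.124 to 0.223, median 0.041). Of the pairs, 29 correlated best with their own set, more than the 1 in 5 that no sharing within sets would give. A link between arrays of one set was not tested, and the fit with the block gives the counts with it allowed for.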

Other observations

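Of the members, 36 had a tested protein-coding gene that overlapped them or lay within 1000 bases in RefSeq's GRCr8 annotation. Among the 39 such neighbours that are not members themselves, 2 were called higher and 5 lower at 250 µM and 24 h. At 1000 µM and 24 h the counts were 1 and 5. At 48 h they were 3 and 10 at 250 µM and 4 and 8 at 1000 µM. Over all tested genes the shares were 8.31% and 11%, 8.28% and 11.2%, 15.2% and 26%, and 11.5% and 18.3%, in that order. The neighbours called lower are near these shares, and those called higher are near or below them. Zfp189, a zinc finger gene beside Mrpl50, fell at both doses and times, by -0.999 ± 0.12 and -0.98 ± 0.12 at 24 h and -1.29 ± 0.12 and -1.05 ± 0.12 at 48 h for 250 and 1000 µM. Mif4gd, beside Mrps7 on the opposite strand, fell in all 4 as well (-0.48, -0.42, -0.27 and -0.32, SE 0.069). Both stayed called lower at 48 h without the 4 vehicle arrays of raised beta-actin ratio. Psma2, a proteasome gene beside Mrpl32, rose in all 4 (0.19, 0.20, 0.49 and 0.28). Ndufb5, a complex I gene that overlaps Mrpl47 on the opposite strand, rose at 48 h (0.26 and 0.165). Without the 4 arrays both were called at 250 µM (0.24 each) and not at 1000 µM (0.03 and 0.15). Pnpla7, beside Mrpl41, was called lower at 48 h alone (-0.51 and -0.42), and changed by 0.08 and 0.17 without the 4 arrays. Slc5a3, the myo-inositol transporter gene that overlaps Mrps6 on the same strand, was not called, with values from -0.43 ± 0.204 to -0.05 ± 0.204. These neighbours were chosen after their values were seen.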
